A study of Mus musculus with 22 samples.

Results

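The 31 genes described here encode the enzymes of cholesterol and fatty acid synthesis and the proteins that control their transcription, and they were followed over the 6 genotype by day groups of a mouse colitis study. The list was made by name and by no threshold on a measured value, though with earlier results of these data known. Of the 31, 30 had at least 1 probe set annotated to a single gene, and Acat2 had none. Where a gene had several such probe sets, the one with the largest interquartile range over the 22 arrays was used. The table holds 18194 genes on this basis, of which the 9097 with the larger interquartile range were tested. These include 29 of the 30 genes, and Mvk, which was not among them, was taken from a fit without that filter.

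Gene expression was measured on Affymetrix arrays in colonic tissue of PPAR γ fl/fl mice without Cre (VC-, the controls, which carry the floxed allele too) and with Villin Cre (VC+). Mice received 2.5% dextran sodium sulfate (DSS), a chemical that damages the colonic epithelium, for 0, 2 or 7 days. The groups held 3 arrays of VC- at day 0, 3 at day 2 and 4 at day 7, and 3, 5 and 4 arrays of VC+ at the same days. The study's methods describe mice of a mixed FVB/C57BL/6 background and others backcrossed to C57BL/6, and do not say which were arrayed. The Villin promoter drives Cre in the intestinal epithelium, so other cells of the tissue keep PPAR γ. Nothing states that each array holds a separate mouse, and the p-values measure the spread between these arrays.

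When membrane sterol falls, SCAP carries the SREBP transcription factors, encoded by Srebf1 and Srebf2, from the endoplasmic reticulum to the Golgi, where they are cut and released to the nucleus. SREBP-2 mainly drives the genes of sterol synthesis and SREBP-1c those of fatty acid synthesis. INSIG-1 holds SCAP back when sterols are plentiful, and Insig1 is itself an SREBP target, so its transcript is a common readout of the pathway.

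SREBPs bind sterol regulatory elements, usually beside sites for NF-Y and Sp1. The 250 bases before the transcription start are shown for Insig1, the gene the comparisons turn on, and for Hmgcs1. Hmgcs1 was chosen because it alone of the genes with a listed promoter matched the sterol element below. Both stretches come from RefSeq (GRCm38.p6, plus strand for both genes), at chr5:28071162-28071411 for Insig1 and chr13:119690101-119690350 for Hmgcs1. Capitals mark the sterol element TCACNCCAC, the E-box CACGTG and the NF-Y box CCAAT, which reads ATTGG on the other strand.
Insig1: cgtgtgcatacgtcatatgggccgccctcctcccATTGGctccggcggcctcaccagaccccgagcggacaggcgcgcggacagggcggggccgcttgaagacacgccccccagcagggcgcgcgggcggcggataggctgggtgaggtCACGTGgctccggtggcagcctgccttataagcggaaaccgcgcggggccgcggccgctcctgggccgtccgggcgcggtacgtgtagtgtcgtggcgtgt
Hmgcs1: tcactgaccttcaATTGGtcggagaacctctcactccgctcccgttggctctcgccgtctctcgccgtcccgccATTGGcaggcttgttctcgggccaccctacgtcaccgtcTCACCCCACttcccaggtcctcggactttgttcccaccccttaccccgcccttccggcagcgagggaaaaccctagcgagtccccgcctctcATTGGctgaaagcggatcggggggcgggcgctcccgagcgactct
The Hmgcs1 stretch holds a sterol element that starts 137 bases before the start. The Insig1 stretch has no match to these letters, but holds an E-box 101 bases and an NF-Y box 216 bases before the start. Both strands were searched, and no base of these matches belonged to more than 1 motif.

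RefSeq promoters were listed for 25 of the 31 genes. The sterol element was found in 1 of the 25 (4.0%), Hmgcs1, against 1.22% of all 27025 genes and 1.27% of the 14453 genes on the array that are listed there. The NF-Y box was found in 20 of 25 (80.0%), against 37.5% of all genes and 39.4% of those on the array. The Sp1 box GGGCGG was found in 21 of 25 (84.0%), against 35.4% and 53.4%. The E-box was found in 5 of 25, in Insig1, Sc5d, Dhcr7, Hsd17b7 and Scap, against 6.86% and 8.73%. These are matches of letters and not measured binding.

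Values are log2 signals after GC-RMA, and array medians lay between 3.41 and 3.55. The log2 signal of Pparg was 9.63, 9.58 and 9.61 on the VC- arrays and 8.62, 8.50 and 8.83 on the VC+ arrays of day 0. It was 9.87, 10.25 and 10.96 against 6.91, 9.54, 8.27, 6.87 and 6.96 at day 2. At day 7 it was 9.82, 7.39, 8.38 and 8.57 on the VC- arrays and 10.35, 10.08, 8.54 and 6.26 on the VC+ arrays. VC+ arrays were thus all lower at days 0 and 2, while at day 7 VC+ replicates 1 and 2 lay above every VC- array. Where the probe set lies relative to the deleted exons is not given in the sources used here, so the genotypes below are those of the labels. Epithelial markers (7 genes, among them Epcam and Vil1) averaged 12.87 to 13.53 on 21 arrays and 10.39 on VC- day 7 replicate 2. Prss2, a gene of the exocrine pancreas, was at 13.77 on VC- day 0 replicate 3, 14.74 on VC- day 7 replicate 2 and 11.20 on VC+ day 7 replicate 4, and at 3.27 to 4.20 elsewhere. Hoxb13, whose expression marks the distal end of the colon, varied from 2.86 to 12.42. It was at 7.29 to 9.67 on the VC- day 0 arrays and 2.88 to 3.08 on those of day 2, so that Hoxb13 and day cannot be told apart there, and it varied within the VC+ groups of days 0 and 2.

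The first question was whether Insig1 and the SREBP targets changed after 2 days of DSS. In VC+ mice, Insig1 rose and was the only one of the 29 genes to pass the test, where 0.055% of all genes passed. That call was close to the threshold and was lost in 5 of the 8 fits that left out 1 array. Most of the sterol synthesis genes were higher with Insig1, without passing. In VC- mice none of the 29 passed, where 0.011% of all genes did. With the Hoxb13 signal as a term the medians of the genotypes at day 2 lay close to each other. That fit cannot separate Hoxb13 from day in VC- mice. The fatty acid genes moved less. By day 7 the sterol genes were lower on average than at day 0 in VC- mice, and in VC+ mice they were on average above their own day 0. In VC- mice Tm7sf2, a sterol enzyme, and Acss2, one of the fatty acid genes, fell at day 7. These were 2 of 29, where 10.6% of all genes passed in either direction. The calls for Acss2 and Tm7sf2 were lost in 5 and 6 of the 7 fits that left out 1 array.

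**Figure D1:**
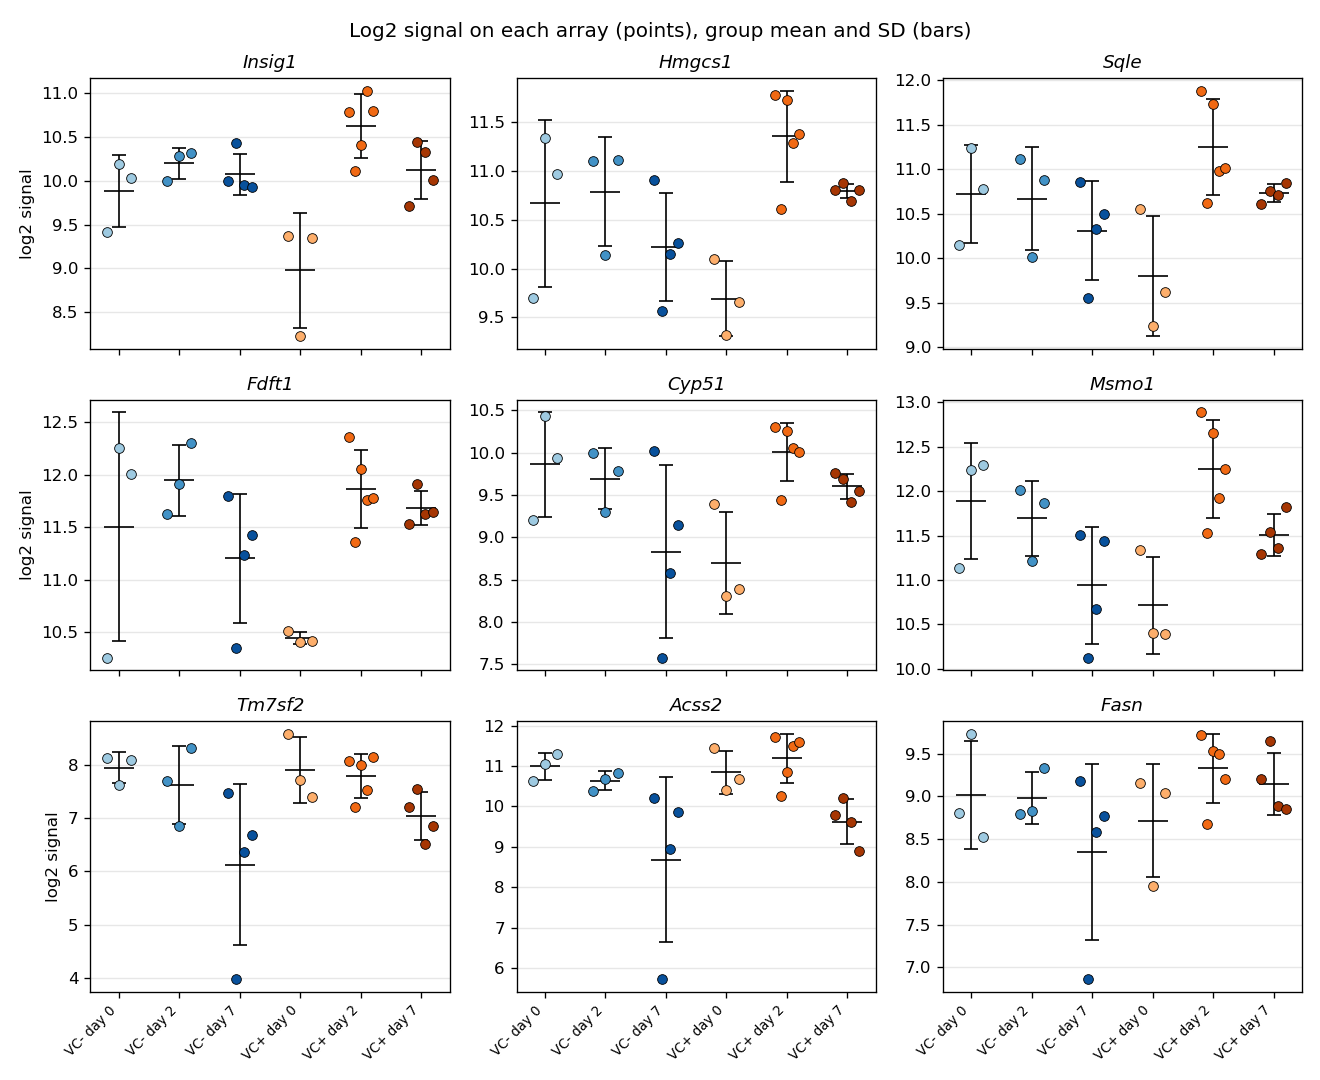
Log2 signal of 9 genes on each of the 22 arrays (points, y axis, scale set per gene) in the 6 groups (x axis), with the group mean and SD as bars. In the Insig1 panel the 5 VC+ day 2 arrays, at 10.11 to 11.02, all lie above the 3 VC+ day 0 arrays, at 8.23 to 9.37.

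For Insig1, the log2 signal was 9.37, 8.23 and 9.35 on the VC+ day 0 arrays, 10.78, 10.11, 10.41, 11.02 and 10.80 at day 2, and 9.72, 10.44, 10.33 and 10.003 at day 7. In VC- mice it was 9.42, 10.19 and 10.03 at day 0, 9.999, 10.28 and 10.31 at day 2, and 9.996, 10.42, 9.95 and 9.93 at day 7. Every VC+ array of days 2 and 7 lay above every VC+ array of day 0, while the VC- groups overlapped one another. The VC+ day 0 arrays were the lowest of all groups, and all 3 were below the 3 VC- arrays of that day. Insig1 thus went from 8.98 ± 0.65 (SD, n = 3) to 10.62 ± 0.36 (n = 5) in VC+ mice at day 2, a log2 fold change of 1.64 ± 0.28 (SE) or 3.12-fold (limma, adjusted p = 0.0333). The same comparison in VC- mice gave 0.32 ± 0.31 (limma, adjusted p = 1.00).

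The call for Insig1 was 1 of 5 among the 9097 genes in VC+ mice at day 2 (0.055%), and in VC- mice at day 2 a single gene passed (0.011%), none of the 29. The call was close to the threshold, since leaving out VC+ day 0 replicate 2, with the lowest Insig1 value, or any of VC+ day 2 replicates 1, 3, 4 and 5 ended it. With the Hoxb13 signal as a term the log2 fold change was 1.49 (limma, adjusted p = 0.0781). With a term for the replicate number Insig1 did not pass either (limma, adjusted p = 0.302). Among arrays with Hoxb13 above 6, a limit chosen after seeing the data, the 4 VC+ day 2 arrays averaged 1.39 above the 1 of day 0. Among those under 6, the 1 array of day 2 was 1.32 above the average of the 2 of day 0. Each rests on a single array on 1 side and allows no test.

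The sterol synthesis enzymes were the group nearest to Insig1. In VC+ mice at day 2, 25 of the 29 genes and 15 of the 16 sterol enzymes tested were higher than at day 0 on average, with median log2 fold changes of 0.64 and 0.93, against -0.02 over all 9097 genes. In VC- mice 15 of 29 and 8 of 16 were higher, with medians of 0.04 and 0.03. With the Hoxb13 term the median over the 29 genes was 0.39 in VC- and 0.52 in VC+ mice. In VC- mice Hoxb13 and day cannot be told apart, so the 0.39 leans on a slope fitted over all groups. That fit therefore cannot say whether Hoxb13 has a part in the gap between the genotypes. At an unadjusted p under 0.05, 10 of the 29 genes were higher and none lower in VC+ mice, against 6.57% of all genes in either direction, and in VC- mice there were 0. All 5 VC+ day 2 arrays lay above all 3 day 0 arrays for 9 genes, Insig1, Hmgcs1, Sqle, Fdft1, Lss, Cyp51, Sc5d, Msmo1 and Elovl6, as they did for 4.17% of all genes. No gene of the 29 did so in VC- mice, where 7.83% of all genes did.

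**Figure D2:**
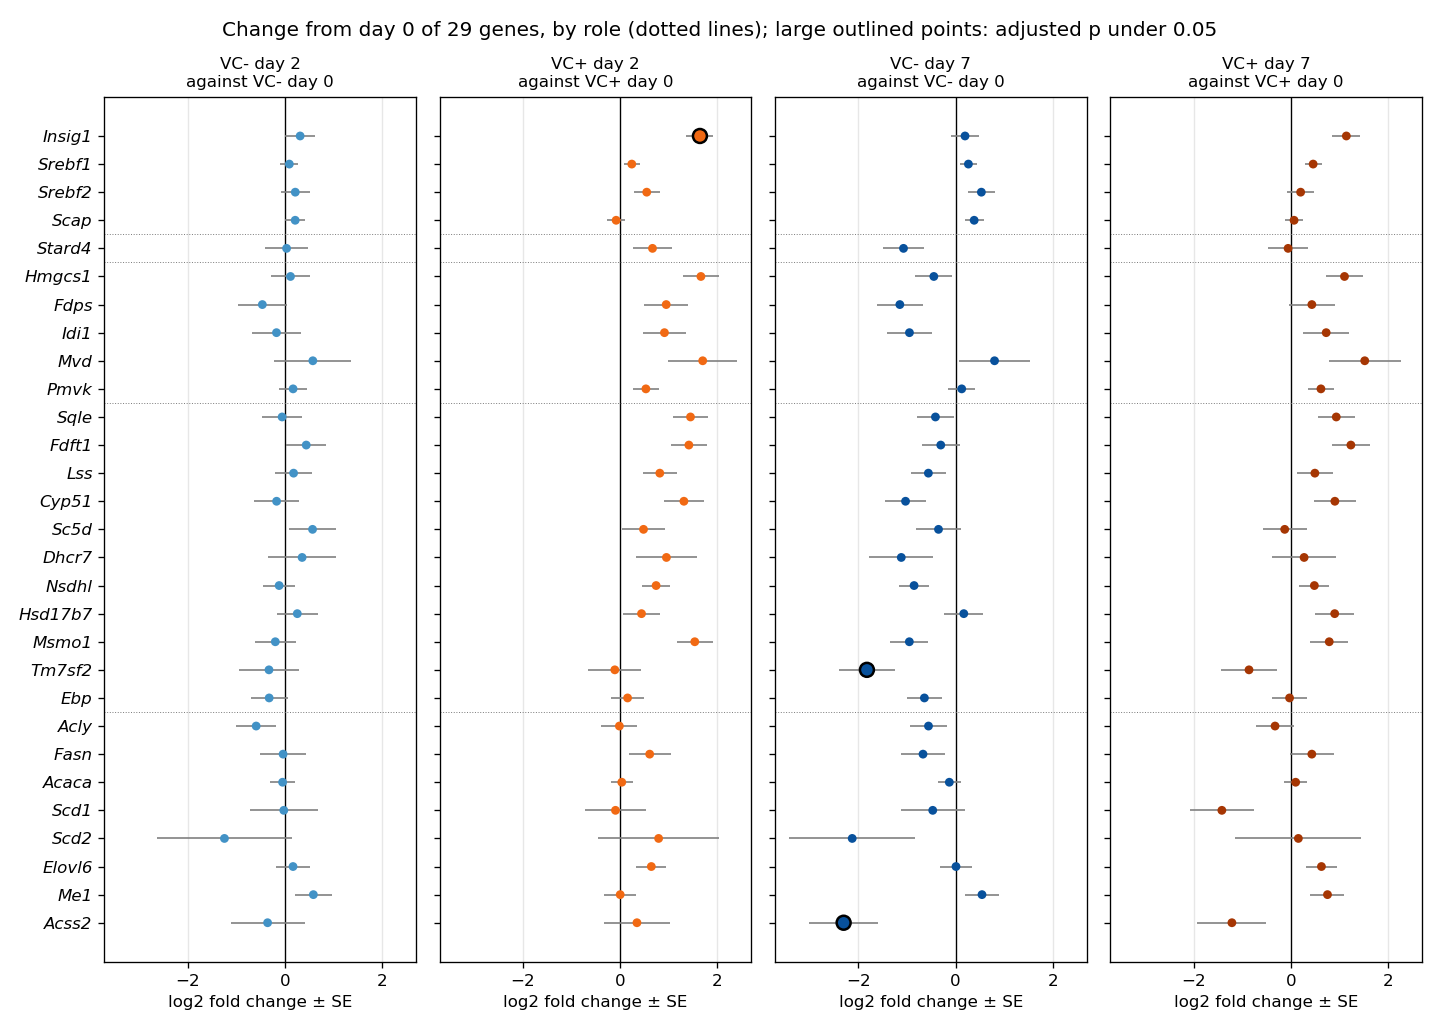
Log2 fold change against day 0 with its SE (x axis) of the 29 tested genes (y axis, grouped by role) in 4 comparisons, with large outlined points for an adjusted p under 0.05. The panels of VC+ mice share their day 0 arrays, as do those of VC- mice. Insig1 at VC+ day 2 (1.64) and Tm7sf2 (-1.82) and Acss2 (-2.30) at VC- day 7 are outlined.

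Of the mevalonate branch, which makes the isoprenoid precursors of squalene, Hmgcs1, the synthase that makes HMG-CoA, stood out at day 2. Its log2 signal was 10.10, 9.32 and 9.66 on the VC+ day 0 arrays, 11.78, 10.61, 11.73, 11.28 and 11.38 at day 2, and 10.81, 10.88, 10.69 and 10.81 at day 7. The VC- values were 9.70, 11.34 and 10.97, then 11.10, 10.14 and 11.11, then 10.91, 9.57, 10.15 and 10.26. The VC+ arrays of days 2 and 7 were all above those of day 0, and the VC- groups overlapped. The log2 fold change in VC+ mice was 1.66 ± 0.36 at day 2 (limma, adjusted p = 0.216), as large as that of Insig1 but with a larger SE. The SE draws on the spread in all 6 groups. The SDs of Hmgcs1 were 0.39 and 0.47 in VC+ mice at days 0 and 2, and 0.55 to 0.86 in the VC- groups.

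Idi1, the isomerase of isopentenyl diphosphate, was at 11.84, 10.97 and 10.86 on the VC+ day 0 arrays, 12.72, 11.23, 12.29, 12.31 and 12.13 at day 2, and 11.80, 12.04, 11.68 and 12.27 at day 7. In VC- mice it was at 11.28, 12.25 and 11.66, then 11.58, 11.21 and 11.89, then 12.11, 9.33, 10.58 and 11.11. The groups overlapped, and the VC+ difference at day 2 was 0.91 ± 0.45 (limma, adjusted p = 0.762). Fdps, which makes farnesyl diphosphate, differed by 0.95 and Pmvk, the kinase of phosphomevalonate, by 0.53 in the same comparison, neither of which passed. Mvd, the decarboxylase of the branch, differed by 1.70 ± 0.71, but its log2 signal was low, at 2.01 to 6.04 over the 22 arrays. Mvk, mevalonate kinase, was low too, with group means of 4.02 to 4.95, and differed by 0.70 in the fit of all 18194 genes (limma, adjusted p = 1.00).

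Of the enzymes from squalene to cholesterol, Sqle, the epoxidase that is one of the slow steps of the pathway, was at 10.55, 9.23 and 9.62 on the VC+ day 0 arrays, 11.88, 10.62, 11.74, 10.99 and 11.02 at day 2, and 10.61, 10.76, 10.71 and 10.85 at day 7. The VC- values were 10.15, 11.24 and 10.77, then 11.11, 10.01 and 10.88, then 10.86, 9.55, 10.33 and 10.50. As with Hmgcs1, the VC+ arrays of both later days lay above day 0, by little in the case of replicate 1 of that day. The log2 fold change at day 2 was 1.45 ± 0.37 in VC+ mice (limma, adjusted p = 0.312) and -0.05 ± 0.41 in VC- mice.

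Fdft1, squalene synthase, differed by 1.42 ± 0.37 in VC+ mice at day 2, Msmo1, which removes methyl groups from the sterol ring, by 1.54 ± 0.37, and Cyp51, the lanosterol demethylase, by 1.31 ± 0.41. Lss, which closes the sterol ring, Nsdhl, a later demethylation enzyme, and Dhcr7, the last reductase of the branch, differed by 0.82, 0.74 and 0.95. Sc5d, the desaturase before Dhcr7, Hsd17b7, a ketosteroid reductase, and Ebp, the sterol isomerase, differed by 0.48, 0.44 and 0.15. Tm7sf2, a sterol reductase, was the exception of the 16, at -0.11 ± 0.55. None of these passed the test. Only 1 value of the 10 was negative, and they ran from near 0 to the size of Insig1.

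Of the regulators, Srebf2, which encodes SREBP-2, was at 6.50, 5.95 and 6.60 on the VC+ day 0 arrays, 7.12, 7.15, 6.50, 6.78 and 6.94 at day 2, and 6.42, 7.32, 6.24 and 6.22 at day 7. In VC- mice it was at 5.65, 6.31 and 6.42, then 6.52, 6.02 and 6.50, then 6.94, 6.71, 6.61 and 6.37. The groups overlapped, and the VC+ difference at day 2 was 0.55 ± 0.26 (limma, adjusted p = 0.754). Srebf1, which encodes the SREBP-1 forms, was at 8.10, 7.73 and 7.73, then 8.34, 7.84, 8.08, 7.90 and 8.31, then 8.01, 8.47, 8.26 and 8.50 in VC+ mice. The VC- values were 7.79, 7.98 and 7.91, then 8.05, 7.85 and 8.07, then 8.15, 8.09, 8.18 and 8.22. Its whole range was under 1 log2 unit, and its differences at day 2 were 0.24 in VC+ and 0.10 in VC- mice. Scap differed by -0.08 in VC+ mice at day 2. Stard4, which carries sterol between membranes, differed by 0.67 ± 0.40.

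The fatty acid genes were less uniform. Their median log2 fold change in VC+ mice at day 2 was 0.19, and 6 of 8 were positive. Fasn, fatty acid synthase, was at 9.16, 7.96 and 9.04 on the VC+ day 0 arrays, 9.72, 8.68, 9.53, 9.501 and 9.20 at day 2, and 9.20, 9.64, 8.89 and 8.86 at day 7. In VC- mice it was at 8.80, 9.73 and 8.53, then 8.80, 8.82 and 9.34, then 9.19, 6.86, 8.58 and 8.77. These groups overlapped throughout, and the VC+ difference at day 2 was 0.61 ± 0.43 (limma, adjusted p = 0.917).

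Scd1, the main stearoyl-CoA desaturase, was at 9.38, 8.28 and 10.36, then 9.27, 8.64, 9.73, 8.78 and 9.80, then 6.66, 8.01, 7.998 and 8.99 in VC+ mice. The VC- values were 9.33, 8.21 and 9.31, then 8.08, 9.97 and 8.75, then 7.52, 10.24, 7.60 and 8.57. The spread within groups was wide, and the day 2 arrays overlapped those of day 0 in both genotypes. Scd2, another desaturase, spread most on the probe set used, from 2.58 to 9.4999 over all arrays. That probe set had a mean of 6.35, and the other Scd2 probe sets had means of 13.01 and 9.45. At VC+ day 2 the probe set used differed from day 0 by 0.79 and the others by 1.04 and 1.15. At VC- day 2 the values were -1.24, -0.36 and -0.68 in the same order. Elovl6, which elongates palmitate, differed by 0.64 ± 0.31 in VC+ mice at day 2, with no overlap of its arrays. Acly and Acss2, which make cytosolic acetyl-CoA from citrate and acetate, Acaca, which makes malonyl-CoA, and Me1, which supplies NADPH, differed by -0.02, 0.35, 0.03 and 0.00.

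**Figure D3:**
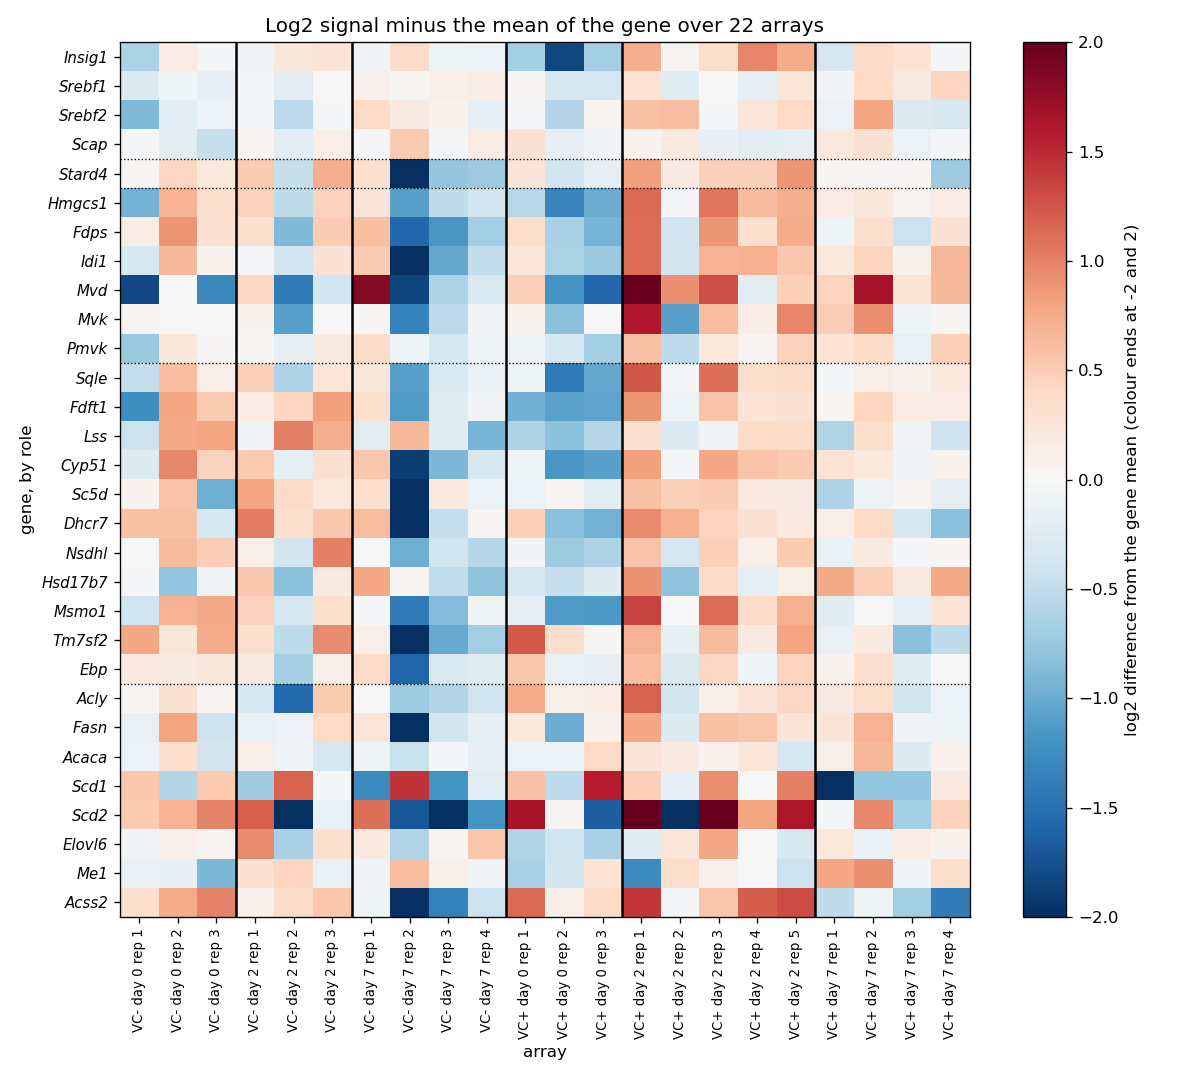
Log2 signal minus the mean of the gene over the 22 arrays (colour, from -2 to 2) for 30 genes (rows, grouped by role) on each array (columns, grouped by genotype and day). The columns of replicates 2 and 3 of VC+ day 0, replicate 2 of VC+ day 2 and replicates 2, 3 and 4 of VC- day 7 are mostly blue in the sterol rows, with 1 to 3 of 16 enzymes above their mean. Those of replicates 1, 3, 4 and 5 of VC+ day 2, replicates 1 and 3 of VC- day 2, replicate 2 of VC+ day 7, replicate 2 of VC- day 0 and replicate 1 of VC- day 7 are mostly red, with 13 to 16 above.

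The VC+ arrays of days 0 and 2 also differed within their groups. Each array was summarised by the median, over the 16 sterol enzymes, of the log2 signal minus the mean of the gene. This was -0.09, -0.77 and -0.83 on the VC+ day 0 arrays and 0.89, -0.14, 0.61, 0.29 and 0.46 at day 2. On the VC- arrays it was -0.29, 0.62 and 0.26 at day 0 and 0.38, -0.38 and 0.31 at day 2. The arrays with values of -0.77, -0.83 and -0.14 had Hoxb13 at 3.09, 2.88 and 3.07, and the other VC+ arrays of these days had it at 9.45 to 12.42. The VC- day 2 arrays had Hoxb13 at 2.88 to 3.08, with sterol values on both sides of 0.

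Limited to arrays with Hoxb13 above 6, the 4 VC+ day 2 arrays averaged above the 1 day 0 array for 23 of the 29 genes, with a median of 0.42. Limited to those under 6, the 1 day 2 array was above the average of the 2 day 0 arrays for 21, with a median of 0.40. With 1 array on a side, these are values without an error. Leaving out any 1 of the 8 arrays left 23 to 27 genes higher. Crypt base markers, among them Lgr5 and Ascl2, averaged 6.29 to 6.46 on the VC+ day 0 arrays and 4.75 to 5.18 at day 2, and 3 of 6 tested fell. Dividing cell markers averaged 8.93 to 8.97 and 6.62 to 8.16, with 0 of 7 passing, and surface colonocyte markers 11.26 to 12.53 and 12.36 to 12.85. The part of these shifts in the sterol genes was not tested, and in whole tissue fewer cells of a type and less RNA per cell cannot be told apart.

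Whether the genotypes differed was tested directly. At day 0, 21 of the 29 genes and 14 of the 16 sterol enzymes were lower in VC+ than in VC- mice, with medians of -0.30 and -0.77, and at an unadjusted p under 0.05 there were 8 genes, all lower. None passed the adjusted test, and of all genes 0.011% did. Insig1, Lss, Nsdhl and Elovl6 had all VC+ arrays below all VC- arrays, as had 10.6% of all genes. Insig1 was lower by 0.90 ± 0.31 and Msmo1 by 1.18 ± 0.42 on the log2 scale (limma, adjusted p = 0.663 for both). The median was -0.07 with the Hoxb13 term and -0.12 without VC+ day 0 replicate 3. Without both VC+ arrays of low Hoxb13, which leaves 1 VC+ array, 14 of 29 genes were lower and the median was 0.04, or -0.07 over the sterol enzymes.

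At day 2, 22 of 29 genes were higher in VC+ mice with a median of 0.31, and none passed, against 0.044% of all genes, with 1 gene, Acly, at an unadjusted p under 0.05. This median turned to -0.14 with the Hoxb13 term. The interaction, the difference between the response to DSS in VC+ and in VC-, was positive at day 2 for 25 of 29 genes with a median of 0.63, which was 0.17 with the Hoxb13 term. It was 1.33 ± 0.42 for Insig1 (limma, adjusted p = 0.459; 0.91 with that term), 1.73 ± 0.56 for Msmo1 and 1.54 ± 0.55 for Hmgcs1. None of the 29 passed, against 0.022% of all genes, and 5 had an unadjusted p under 0.05. The test thus did not show a different response of the genotypes at day 2. The interaction values with the Hoxb13 term are limited, since Hoxb13 and day cannot be told apart in VC- mice.

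By day 7 the averages lay on opposite sides of day 0 in the genotypes. In VC- mice 20 of 29 genes were lower than at day 0, with a median of -0.47 against -0.09 over all genes, and 13 of the 16 sterol enzymes, with a median of -0.60. The median over the 29 was -0.28 with the Hoxb13 term and -0.22 without replicate 2 of day 7. In the same comparison the median difference was -1.60 over the dividing cell markers, of which 1 of 7 fell, -0.79 over the epithelial markers, of which none of 5 passed, and -1.54 over the crypt base markers, of which 3 of 6 fell. In VC+ mice these medians were 0.46, 0.06 and -0.78, with 3 of 6 crypt base markers falling, and the part of these shifts in the values below was not tested. Acss2 and Tm7sf2 fell, which is 2 of 29 where 10.6% of all genes passed in either direction. The log2 signal of Acss2 was 10.64, 11.04 and 11.29 on the VC- day 0 arrays, 10.39, 10.69 and 10.83 at day 2, and 10.22, 5.73, 8.94 and 9.86 at day 7. The VC- day 7 arrays were all below the others, and replicate 2 was far below. The log2 fold change from day 0 was -2.30 ± 0.71, or 4.94-fold lower (limma, adjusted p = 0.046).

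Tm7sf2 was at 8.13, 7.61 and 8.10, then 7.70, 6.85 and 8.31, then 7.48, 3.97, 6.36 and 6.68 in VC- mice, with the day 7 arrays again all below day 0. It changed by -1.82 ± 0.57 (limma, adjusted p = 0.0482). In VC+ mice Acss2 was at 11.43, 10.41 and 10.68, then 11.71, 10.27, 10.86, 11.50 and 11.60, then 9.79, 10.21, 9.61 and 8.89. Tm7sf2 was there at 8.59, 7.71 and 7.39, then 8.06, 7.20, 7.996, 7.54 and 8.15, then 7.21, 7.55, 6.52 and 6.85. Both were lower on average at day 7 in VC+ mice too, by 1.21 ± 0.71 and 0.86 ± 0.57 on the log2 scale, without passing, and the difference between the genotypes did not pass either (limma, adjusted p = 0.724 and 0.697).

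Both calls in VC- mice were lost without replicate 2 of day 7, the array with the pancreas signal and the low epithelial markers, and also without replicate 3 or any 1 of the day 0 arrays. Without the 3 arrays with Prss2 above 8 the differences were -1.17 for Acss2 and -1.03 for Tm7sf2 (limma, adjusted p = 0.188 and 0.271), 19 of 29 genes were lower and the median was -0.24. Acly joined Acss2 and Tm7sf2 as a gene with all VC- day 7 arrays below all day 0 arrays, as 12.3% of all genes had. Srebf1 and Me1 had all VC- day 7 arrays above all day 0 arrays, as had 784 of the 9097 genes. The 7 genes with an unadjusted p under 0.05, Fdps, Cyp51, Nsdhl, Msmo1, Tm7sf2, Stard4 and Acss2, were all lower. Against VC- day 2, 24 of 29 genes were lower at day 7 with a median of -0.57, and none passed, where 5.61% of all genes did and 5 of the 29 had an unadjusted p under 0.05.

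Replicate 1 of VC- day 7 went the other way. Its median over the sterol enzymes was 0.35, with 14 of 16 above their mean, while it was -1.49, -0.48 and -0.32 on replicates 2, 3 and 4. Without replicate 1 the test called 8 of the 29 genes at VC- day 7 against day 0, where it called 28.6% of all genes, and 7 against day 2, where it called 23.3%. Insig1 did not follow the sterol enzymes on replicate 2, the lowest of all arrays in sterol enzymes, which had the highest Insig1 of its group (10.42). That array also held the pancreas signal and the low epithelial markers. Among the other arrays of the group Insig1 differed little. It was at 9.996 on replicate 1 and at 9.95 and 9.93 on replicates 3 and 4. The regulators Insig1, Srebf1, Srebf2 and Scap were all positive at VC- day 7 (0.20, 0.27, 0.53 and 0.38), and none passed.

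In VC+ mice 22 of 29 genes and 13 of 16 sterol enzymes were above day 0 at day 7, with medians of 0.46 and 0.67. Insig1 was 1.14 ± 0.29 higher or 2.21-fold, just short of the threshold (limma, adjusted p = 0.0505). None of the 29 passed, against 1.75% of all genes, and at an unadjusted p under 0.05 there were 9 higher and 1, Scd1, lower. All day 7 arrays lay above all day 0 arrays for Insig1, Hmgcs1, Sqle, Fdft1, Cyp51, Hsd17b7 and Elovl6, as they did for 9.61% of all genes. For Acss2 all day 7 arrays lay below all day 0 arrays, as they did for 783 of the 9097 genes. This comparison uses the same 3 day 0 arrays as that of day 2. Without the 2 VC+ day 7 arrays of highest Pparg, 18 of 29 genes were higher, with a median of 0.40 and Insig1 at 1.19.

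Compared with day 2, 23 of 29 genes were lower at VC+ day 7 with a median of -0.32, which turned to 0.06 with the Hoxb13 term. In this comparison 6 of 7 dividing cell markers rose, with a median of 2.04, and 5 of 5 smooth muscle markers fell, with a median of -1.60, and their part was not tested. None of the 29 passed, where 7.58% of all genes did, and 4 had an unadjusted p under 0.05. Sc5d, Stard4 and Acss2 had all day 7 arrays below all day 2 arrays, as had 6.28% of all genes. Hmgcs1 and Sqle differed by -0.56 and -0.52, and their 4 arrays at day 7 lay close together, with SDs of 0.08 and 0.10 against 0.47 and 0.54 at day 2.

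Between the genotypes at day 7, 26 of 29 genes and all 16 sterol enzymes were higher in VC+ mice, with medians of 0.48 and 0.57 against 0.08 over all genes. The dividing cell and epithelial markers were higher too, with medians of 1.70 and 0.83, and none of these 7 and 5 passed. Their part was not tested. Without VC- day 7 replicate 2 the median over the 29 genes was 0.25. None of the 29 passed (0% of all genes did), and 1, Idi1, had an unadjusted p under 0.05, at 1.17 ± 0.44. Without the 3 arrays with Prss2 above 8, 15 of the 16 were higher and their median was 0.29. Insig1 did not share the difference, at 0.05 ± 0.27. The interaction at day 7 was positive for all 16 sterol enzymes, with a median of 1.34, and for 26 of the 29 genes, with a median of 0.96, or 0.49 without VC- day 7 replicate 2. For the dividing cell and epithelial markers the medians were 2.05 and 0.84, and none passed. None of the 29 genes passed either (0% of all genes did), and 9 genes, all positive, had an unadjusted p under 0.05, with the largest value among them for Cyp51, at 1.93 ± 0.60 (limma, adjusted p = 0.58). Insig1 was at 0.95 ± 0.41 with the same adjusted p. Another Cyp51 probe set, of higher mean signal, changed less from day 0 to day 7, by -0.31 in VC- and 0.78 in VC+ mice. The probe set used gave -1.03 and 0.905.

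**Figure D4:**
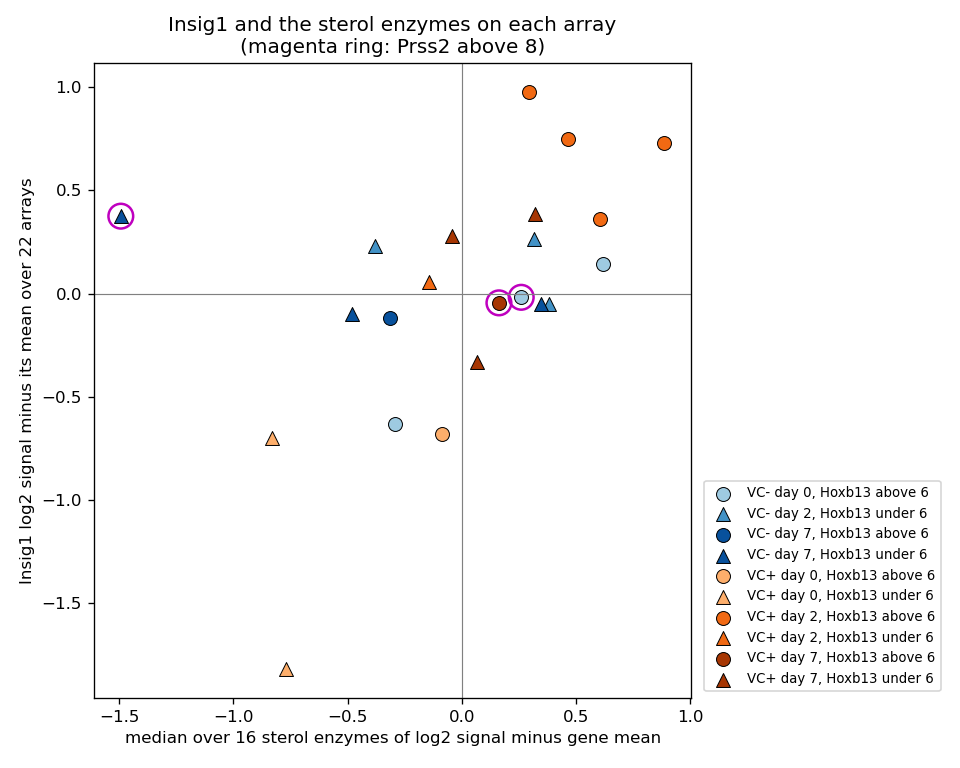
Insig1 log2 signal minus its mean over the 22 arrays (y axis) against the median of the same difference over 16 sterol enzymes (x axis), 1 point per array, coloured by group, with circles for Hoxb13 above 6, triangles for under 6 and magenta rings for Prss2 above 8. The VC+ day 0 arrays lie at the lower left and 4 VC+ day 2 arrays at the upper right, and VC- day 7 replicate 2 stands apart at -1.49 on the x axis.

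Over the 22 arrays, the gene whose log2 signal was most like that of Insig1 among the other 9096 genes by Pearson r was Hmgcs1 (r = 0.71). Its Spearman rho was 0.64, below the 0.741 of Lss. Fdft1, Lss and Sqle came at ranks 3, 4 and 5 (r = 0.672, 0.654 and 0.647), and 10 of the 28 other genes described here were among the first 100. These were, beside those 4, Msmo1, Pmvk, Srebf2, Cyp51, Srebf1 and Nsdhl. The median r was 0.294 over the 28 and -0.036 over all genes. Without the 2 arrays farthest from the Insig1 median, VC+ day 2 replicate 4 and VC+ day 0 replicate 2, Hmgcs1 was at rank 4 (r = 0.625) and Fdft1 at rank 1 (r = 0.663). With the group means removed, the median r was 0.157 and 1 of the 28, Lss (r = 0.731), was among the first 100, while Hmgcs1 was at rank 715. Arrays of a group share their condition, so these values are a description.

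Other genes of sterol and lipid handling were read from lists. Of the genes of sterol supply and SREBP processing (8 tested), of LXR targets and sterol efflux (6) and of fatty acid elongation and glycerolipid synthesis (14), none passed at day 2 in either genotype. In VC+ mice at day 2 their medians were 0.04, -0.06 and -0.01, unlike the 0.93 of the sterol enzymes. At VC- day 7 against day 0, Scarb1, the HDL receptor, rose by 1.38, Ch25h, which makes 25-hydroxycholesterol, a sterol that keeps SREBPs in place, by 2.51, Fads1, a fatty acid desaturase, by 1.42 and Lpin1, a phosphatidate phosphatase, by 1.73. Acsl3, an acyl-CoA synthetase, fell by 1.98 and Thrsp, a gene of lipogenic tissue, fell by 3.49 on the log2 scale in the same comparison. These 6 were 1 of 8, 1 of 6 and 4 of 14, where 10.6% of all genes passed, and none of the 3 lists held a call at VC+ day 7 against day 0. The macrophage markers, of which 6 of 8 rose at VC- day 7, averaged 7.37 to 7.67 on the VC- day 0 arrays and 8.15 to 11.02 at day 7, and their part in these values was not tested.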

How the data were processed

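The deposited values are log2 signals. The authors extracted RNA from colonic tissue, hybridised it to Affymetrix mouse arrays and made the values with GC-RMA, which corrects for background and normalizes across arrays (R 2.10.1 in the submitters' processing notes). The table holds 45101 probe sets, of which 34958 carry a single gene symbol in the platform annotation and were used, and 932 with several symbols were left out. No 2 arrays are identical. Log2 values ran from 0.58 to 16.76, and the number of arrays limits the precision. Genes were represented by the probe set of largest interquartile range, and the upper 50% by that range were tested. With limma 3.58.1 (R 4.3.3), 6 group means were estimated over all 22 arrays in 1 linear model, with variances moderated by empirical Bayes, two-sided p-values and Benjamini-Hochberg adjustment within each of 11 comparisons (threshold 0.05). The fit was tested on simulated data. Values on every array are given for Insig1, Hmgcs1, Sqle, Idi1, Srebf1, Srebf2, Fasn and Scd1 and for each gene that passed, and every gene is named. Members, lists and tests were chosen with earlier results of these data known. Alternatives were the filters, the choice of probe set, the arrays in the fit, a replicate block, array quality weights, a Hoxb13 term and leaving out each array. The comparisons limited by Hoxb13, Prss2 or Pparg signal outside the fit were added after seeing the data. Tables and figures were made with Python 3.11.15, pandas 2.3.3 and matplotlib 3.10.9.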

Additional observations from a re-analysis of the deposited data

Results flagged for a closer look

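In the groups of 4 or 5 arrays, 90 sets of values of 1 gene in 1 group were examined for an array far from the others, and 3 had one, where chance gives about 1 in 20. Insig1 was highest on VC- day 7 replicate 2, at a log2 signal of 10.42 with the next at 9.996. Sc5d was lowest on the same array, at 5.49 with the next at 7.64. Stard4 was lowest on VC+ day 7 replicate 4, at 10.09 with the next at 10.84. Both arrays carry the Prss2 signal.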

How the results depend on the processing

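The number of the 29 genes that passed changed with the settings. With array quality weights 16 passed at VC+ day 2 against day 0 (14.1% of all genes), 7 at VC- day 7 against day 0 (24.4%), 13 at VC+ day 7 against day 0 (16.6%), 6 at VC+ day 7 against day 2 (29.1%), 10 in VC+ against VC- at day 0 (7.54%), 1 at day 7 (17.5%), and 6 and 10 in the interactions at days 2 and 7 (3.74% and 8.71%). At VC+ day 2, 0 passed with the replicate block or the Hoxb13 term, and 0 to 1 when each array was left out in turn. At VC- day 7 against day 0, 0 passed without the variance filter, with only the compared groups in the fit, with the replicate block, without the arrays with Prss2 signal and with the Hoxb13 term, 1 with the probe set of highest mean, and 0 to 8 when each array was left out. At VC+ day 7 against day 0, 1 gene, Insig1, passed with the probe set of highest mean (adjusted p = 0.0482) and with the Hoxb13 term (adjusted p = 0.0294), 1 with only the compared groups, and 0 to 1 when each array was left out. At VC+ day 7 against day 2, 1 passed with only the compared groups and 1 without the arrays with Prss2 signal. Leaving out each array gave 0 to 7 at VC- day 7 against day 2 and 0 to 3 in VC+ against VC- at day 7, with the highest count in both without VC- day 7 replicate 1. Over the 8 settings other than leaving out each array, the Insig1 call at VC+ day 2 was kept in 5 and lost in 3. In the same comparison Fdft1, which did not pass in the main fit, passed in 2 of the 8. The log2 fold change of Insig1 at VC+ day 2 stayed between 1.27 and 1.98 in every setting run. The cause of these changes was not tested.

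Some small log2 differences changed sign. With array quality weights these were, at VC+ day 2, Tm7sf2 (0.20), Acly (0.15), Acaca (-0.038), Scd1 (0.37) and Me1 (-0.059), and Insig1 at VC- day 7 against day 0 (-0.0019). With the Hoxb13 term they were Ebp (-0.070), Scd2 (-0.37) and Acss2 (-0.090) at VC+ day 2. Leaving out each array, the ranges were -0.035 to 0.35 for Insig1 at VC- day 7 against day 0 and -0.060 to 0.18 for VC+ against VC- at day 7. At VC+ day 2 they were -0.36 to 0.24 for Tm7sf2, -0.18 to 0.051 for Scap, -0.23 to 0.19 for Acly, -0.054 to 0.21 for Acaca, -0.63 to 0.41 for Scd1, -0.042 to 1.90 for Scd2 and -0.20 to 0.26 for Me1.

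No source says that the replicate numbers mark a shared animal or batch, and the main fit did not pair the arrays. Of 48 pairs with the same number in different groups 18 correlated above 0.1 after removing group means, against 36 of 152 others, and for 13 of 22 arrays the closest array outside the group had the same number. The mean correlation was 0.084 for pairs of the same number and -0.027 for the others, a hint from the data that numbers may share something. With the replicate block, Insig1 at VC+ day 2 was 1.58 (limma, adjusted p = 0.302), no longer past the threshold, and none of the 29 passed in any of the 11 comparisons.

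Groups of 3 to 5 arrays, some of which hold pancreas signal or differ in Hoxb13, limit every comparison, and values under a log2 signal of about 5, as for Mvd and Mvk, lie near the low end of the scale.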

Other observations

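Most of the genes are represented by more than 1 probe set. The 30 genes have 69 single-gene probe sets, of which 53 reached a log2 signal of 5 on some array. At VC+ day 2, 46 of the 53 were higher than at day 0 on average, and the probe sets of each of the 17 genes with more than 1 had the same sign. At VC- day 2, 29 of 53 were higher, and those of Idi1 and Sc5d differed in sign. At VC- day 7, 13 of 53 were higher than at day 0, with different signs for Hsd17b7, and at VC+ day 7, 41 were, with different signs for Mvk, Sc5d and Stard4. Probe sets of 1 gene were read on the same arrays and are not replicates.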
